A study of Mus musculus with 24 samples.

Results

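Angptl2, Nptx2, Lrrc61, Slc37a2, Arhgef15, Stambp, Mgll, Wdr34 and Qsox2 are 9 genes whose RNA was higher in round spermatids homozygous for a Ddx4 knock-in than in wild-type ones, and they were chosen by that measured difference. They are 9 of the 55364 genes in the round spermatid tables, and all 9 were among the 17809 genes that passed a filter on low counts there. They are also listed among the 55401 genes of the CB tables, where 19335 genes, all 9 among them, passed the filter. Ordered by p-value in the homozygous against wild-type comparison of spermatids, the 9 genes took places 3 to 43, which follows from their choice. Ordered by the size of the change among the 426 genes called higher, they took places 4 (Angptl2) to 108 (Qsox2), so many genes outside the list had larger changes. Because homozygous spermatids chose the genes, their spermatid values for that genotype are given below as a description with no test.

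The mice were knock-ins at Ddx4, which encodes the mouse homologue of the Vasa helicase. The series' title speaks of combinatorial tagging, and neither the design of the allele nor the age of the mice was analysed here. Round spermatid RNA came from testes of WT, DDX4 heterozygous knock-in and DDX4 homozygous knock-in mice, with n = 2 libraries a genotype. The CB RNA was taken from germ cells of heterozygous and homozygous mice (n = 3 libraries a genotype), with no wild-type CB library analysed here. All cells were released from testes with a digestion in steps, and the labels neither expand the letters CB nor tie libraries to animals. The p-values below therefore measure the spread between these libraries, which may be technical.

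Round spermatids are haploid germ cells that still transcribe their genome before the nucleus condenses, and much of their RNA is stored for later translation. They hold a large cytoplasmic germ granule in which DDX4 and PIWI proteins gather together with piRNAs, the small RNAs that guide PIWI proteins. The 9 genes have no common pathway. They encode secreted proteins (Angptl2, Nptx2), proteins of membranes, lipids and disulfide bonds (Slc37a2, Mgll, Qsox2), a guanine nucleotide exchange factor and a deubiquitinase (Arhgef15, Stambp), a dynein subunit (Wdr34) and a protein with leucine-rich repeats (Lrrc61).

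Levels within a gene are given as CPM, the rounded expected counts scaled to a common library size by TMM. Ddx4 itself was measured at 443 and 521 CPM in the wild-type spermatid libraries, 406 and 403 in the heterozygous ones and 121 and 130 in the homozygous ones. In CB RNA it stood at 277, 312 and 365 CPM in heterozygous and 303, 306 and 244 in homozygous libraries. Library totals were 15.3 to 24.9 M counts in spermatids and 14.2 to 16.5 M in CB RNA. Wild-type spermatid library 1 stood apart, with 0.627% of its counts on the protamine gene Prm1 against 0.121% to 0.149% in the other spermatid libraries. Without it the log2 changes of the 9 genes from wild type to homozygous were 1.93 to 5.05, against 2.02 to 5.01 with it. Summed TPM of 10 round spermatid markers was 40694 to 69462 in the spermatid libraries and 2671 to 3277 for 10 pachytene spermatocyte markers there, so markers of the labelled cell type were present at high levels. In the CB libraries those sums were 4821 to 8693 and 2433 to 2915, and heterozygous CB library 1 had the highest round spermatid sum. In spermatids, Prm1, Prm2 and Tnp2 made up most of the round spermatid sum. Ybx2 made up most of the pachytene sum (1990 to 2550 TPM in wild type). The 10 round spermatid markers all had log2 changes below 0 in homozygous against wild-type spermatids. Their median was -0.51 (all genes -0.0006), and none was called. Prm1, Prm2, Tnp1, Tnp2 and Catsper1 overlapped between these genotypes, while Acrv1, Spaca1, Spaca7, Izumo1 and Tssk2 did not. The wild-type mean was 3844 CPM (SD 3588) for Prm1 and 893 CPM (SD 845) for Tnp1. The summed markers were 69462 and 41931 TPM in wild-type libraries 1 and 2, and 45225 and 44777 TPM in the homozygous ones.

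Promoter windows of 300 bases, from 250 before to 50 after a transcription start, were read from RefSeq (GRCm38.p6) for 6 of the 9 genes (not for Nptx2, Lrrc61 and Arhgef15); 7 windows were found, Mgll having 2. They are shown for Angptl2 and Slc37a2, which share a match to 1 of the motifs searched, and for Stambp and Mgll, which lie at piRNA clusters described below. The Stambp window lies at a start inside the gene (83543206 to 83575826, minus strand). It does not cover the outer start side, which is the side of the cluster. Capitals mark matches, on either strand, to the cyclic AMP response core TGACGT, the GC box GGGCGG, the CCAAT box, the E-box CACGTG and the MYB motif AACNGT.
Angptl2 (chr2:33215711-33216010, plus strand): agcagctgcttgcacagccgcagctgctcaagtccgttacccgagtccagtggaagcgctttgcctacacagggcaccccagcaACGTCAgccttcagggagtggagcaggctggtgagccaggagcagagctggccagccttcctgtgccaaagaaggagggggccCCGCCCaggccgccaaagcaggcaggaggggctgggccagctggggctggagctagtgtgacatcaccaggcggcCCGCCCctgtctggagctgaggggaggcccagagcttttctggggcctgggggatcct
Slc37a2 (chr9:37255689-37255988, minus strand): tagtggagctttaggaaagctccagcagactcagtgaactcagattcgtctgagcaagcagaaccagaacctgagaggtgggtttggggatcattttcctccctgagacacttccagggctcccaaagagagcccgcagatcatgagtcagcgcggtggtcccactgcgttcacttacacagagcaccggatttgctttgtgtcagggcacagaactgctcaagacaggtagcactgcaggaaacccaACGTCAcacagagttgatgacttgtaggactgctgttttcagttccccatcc
Stambp (chr6:83572455-83572754, minus strand): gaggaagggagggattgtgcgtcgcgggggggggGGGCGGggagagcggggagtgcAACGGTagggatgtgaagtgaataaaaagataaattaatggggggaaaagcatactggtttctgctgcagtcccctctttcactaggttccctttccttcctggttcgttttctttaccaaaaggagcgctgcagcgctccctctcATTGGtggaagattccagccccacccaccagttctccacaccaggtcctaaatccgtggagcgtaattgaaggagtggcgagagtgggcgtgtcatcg
Mgll (chr6:88724162-88724461, plus strand): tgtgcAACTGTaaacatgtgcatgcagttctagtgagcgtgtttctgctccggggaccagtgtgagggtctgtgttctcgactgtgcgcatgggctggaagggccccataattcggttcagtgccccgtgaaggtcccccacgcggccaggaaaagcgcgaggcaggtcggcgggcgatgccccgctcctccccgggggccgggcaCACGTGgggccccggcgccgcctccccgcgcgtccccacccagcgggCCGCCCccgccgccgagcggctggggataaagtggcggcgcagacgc

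TGACGT, the core of the site bound by CREB and CREM factors, was matched 166 bases before the start in Angptl2 and 2 bases before it in Slc37a2, both on the minus strand of the gene. It was found in 2 of the 7 windows and in 10.2% of the 15865 windows of genes tested in spermatids. GGGCGG, a GC box, was found in 6 of the 7 windows and in 54.2% of windows of tested genes. TATAAA was in none of the 7 windows and in 8.02% of windows of tested genes. The CCAAT box was in 2 windows (37.4% of tested windows), the E-box in 2 (9.01%), the MYB motif in 2 (22.8%) and GTTGCC, an X-box element, in 1 (14.0%). A match is only a string of letters in this window, and overlaps between motifs were not removed. GC content of the 7 windows ranged from 52.7% to 72.3%, around a median of 59.0% for windows of tested genes.

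Angptl2 encodes a secreted glycoprotein related to the angiopoietins, and its RNA had the largest change of the 9 genes. In wild-type spermatids it was close to absent, at 0.708 and 0.658 CPM, which rests on 13 and 16 counts. The heterozygous libraries had 1.31 and 1.83 CPM (25 and 28 counts) and the homozygous ones 22.8 and 21.4 CPM (443 and 409 counts). Both homozygous libraries thus stood far above all 4 others, with a log2 change of 5.01 (SE 0.239) from wild type and of 3.82 (SE 0.220) from heterozygous. In CB RNA, heterozygous libraries had 3.73, 6.19 and 3.29 CPM and homozygous ones 10.6, 12.5 and 10.8. Every homozygous CB library was above every heterozygous one, and Angptl2 rose by 1.35 on the log2 scale (SE 0.227, edgeR adjusted p = 0.0164).

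Nptx2 encodes neuronal pentraxin 2, a secreted protein that gathers AMPA-type glutamate receptors at synapses. Spermatid levels were 7.03 and 7.40 CPM in wild type, 9.78 and 8.71 in heterozygous and 73.3 and 63.6 in homozygous libraries. The homozygous pair was 9.47-fold above wild type (log2 3.24, SE 0.164) and 7.39-fold above heterozygous (log2 2.89, SE 0.162). CB levels were 3.22, 4.59 and 5.82 CPM in heterozygous and 10.4, 11.5 and 10.8 in homozygous libraries. The CB groups did not overlap, and Nptx2 rose by 1.26 on the log2 scale (SE 0.205, edgeR adjusted p = 0.0143).

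Lrrc61 is named for its leucine-rich repeats. Spermatid levels were 7.79 and 8.35 CPM in wild type, 9.20 and 7.73 in heterozygous and 72.7 and 78.8 in homozygous libraries. Wild-type and heterozygous values overlapped, and the homozygous pair was 9.37-fold and 8.93-fold above them. In CB RNA the gene was well covered, at 56.1, 71.6 and 76.7 CPM in heterozygous and 158, 154 and 165 CPM in homozygous libraries (783 to 2710 counts). It rose there by 1.22 on the log2 scale (SE 0.124, edgeR adjusted p = 0.00191), at place 14 of 19335 genes by p-value. Among the 9 genes it alone was called in CB RNA under all 11 alternative settings that were run, with log2 changes of 1.09 to 1.30.

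**Figure D1:**
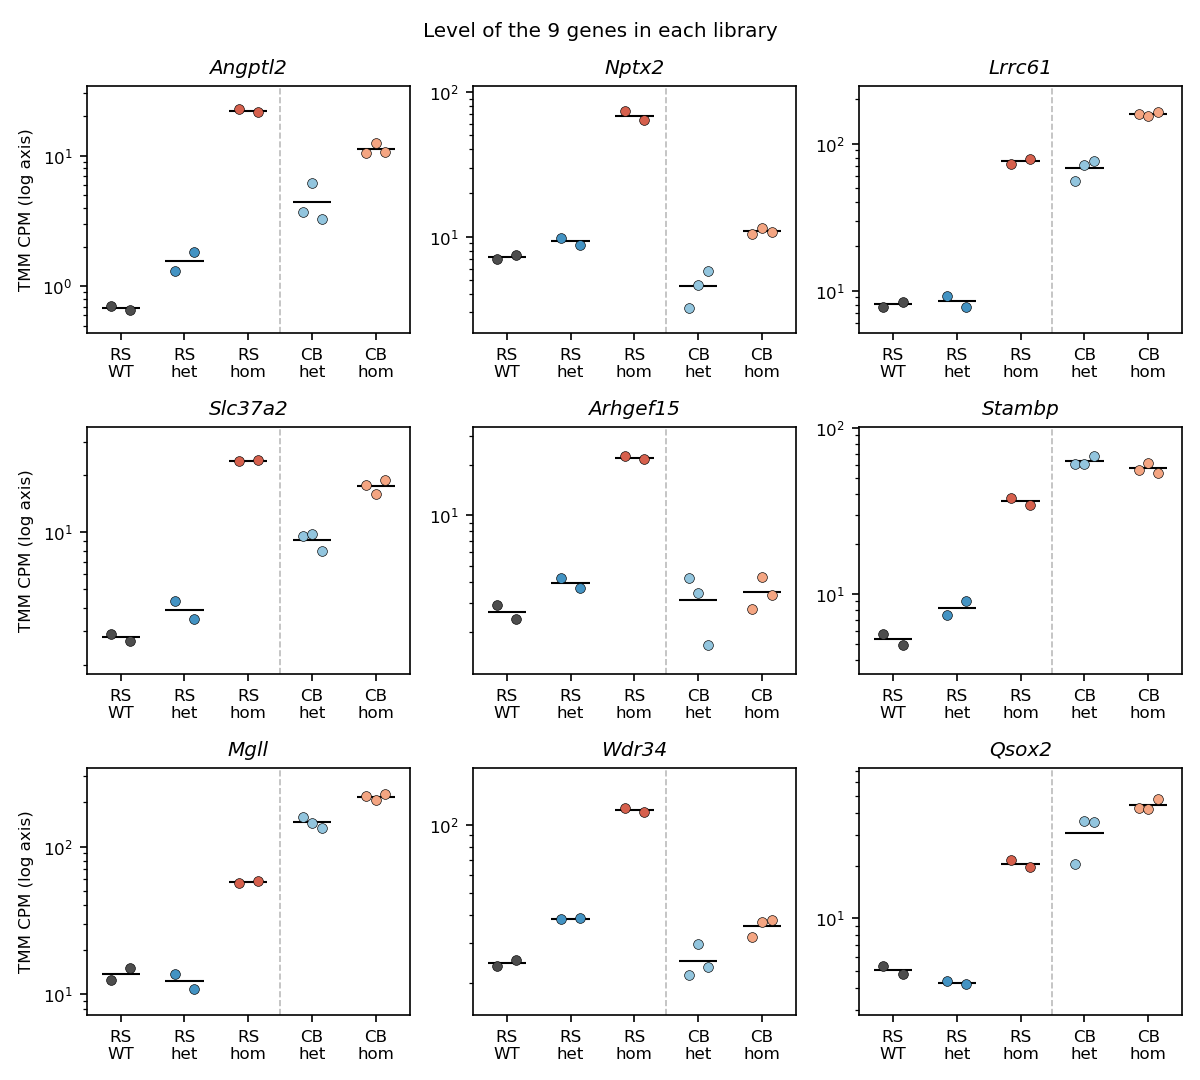
TMM-normalised CPM of each of the 9 genes (log axis, 1 panel a gene) in every round spermatid (RS) and CB library by Ddx4 genotype (WT, het = heterozygous, hom = homozygous); points are libraries and bars group means (n = 2 in RS, n = 3 in CB). Both RS hom points lie above all RS WT and het points in all 9 panels, which follows from how the genes were chosen. Of all genes, 26.7% had RS hom above WT and 32.6% above het, each comparison taken alone. The CB groups overlap only for Arhgef15 and Stambp, and 11.5% of all genes had every CB hom library above every het one.

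Slc37a2 encodes a sugar-phosphate and phosphate exchanger of the endoplasmic reticulum membrane. Its spermatid levels were 2.89 and 2.67 CPM in wild type, 4.31 and 3.47 in heterozygous and 23.7 and 24.0 in homozygous libraries. The homozygous pair lay close together and 8.57-fold above wild type (log2 3.10, SE 0.186). In CB RNA the gene had 9.53, 9.74 and 7.92 CPM in heterozygous and 17.8, 16.0 and 19.0 in homozygous libraries. These groups did not overlap, and Slc37a2 rose by 0.96 on the log2 scale (SE 0.142, edgeR adjusted p = 0.0100).

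Mgll encodes monoacylglycerol lipase, which breaks down the endocannabinoid arachidonoylglycerol and frees fatty acids. It had 12.5 and 15.1 CPM in wild-type, 13.8 and 10.9 in heterozygous and 56.8 and 58.2 in homozygous spermatids. Wild-type and heterozygous values overlapped, with the homozygous pair 4.16-fold above wild type (log2 2.06, SE 0.183). CB libraries had 159, 145 and 133 CPM in heterozygotes and 220, 207 and 227 in homozygotes. The CB groups were apart, and Mgll rose by 0.58 on the log2 scale (SE 0.104, edgeR adjusted p = 0.0222).

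Qsox2 encodes a quiescin sulfhydryl oxidase, an enzyme that puts disulfide bonds into proteins of the secretory pathway. It had 5.34 and 4.81 CPM in wild-type, 4.36 and 4.19 in heterozygous and 21.5 and 19.6 in homozygous spermatids, so the heterozygous pair was the lowest. The homozygous pair was 4.05-fold above wild type (log2 2.02, SE 0.165). In CB RNA it had 20.4, 36.0 and 35.6 CPM in heterozygous and 42.8, 42.2 and 48.4 in homozygous libraries. Although the groups did not overlap, the log2 change of 0.54 (SE 0.191) did not pass the test (edgeR adjusted p = 0.221), and heterozygous library 1 was far below the other two of its group. Without that library the log2 change was 0.30 (edgeR adjusted p = 0.0626).

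Arhgef15 encodes a guanine nucleotide exchange factor of the ephexin family, best known from endothelial cells and neurons. Spermatid levels were 2.89 and 2.39 CPM in wild type, 4.21 and 3.67 in heterozygous and 22.5 and 21.8 in homozygous libraries. The homozygous pair was 8.41-fold above wild type (log2 3.07, SE 0.189). CB RNA showed no such separation, with 4.23, 3.41 and 1.68 CPM in heterozygous and 2.73, 4.29 and 3.34 in homozygous libraries. The groups overlapped, and the log2 change was 0.15 (95% interval -0.48 to 0.78, edgeR adjusted p = 0.880). At 24 to 68 counts a library, Arhgef15 was among the least covered of the 9 genes in CB RNA.

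Stambp encodes an endosomal deubiquitinase that removes lysine-linked ubiquitin chains from cargo sorted by the ESCRT machinery. It had 5.72 and 4.93 CPM in wild-type, 7.41 and 9.10 in heterozygous and 37.8 and 34.4 in homozygous spermatids. The homozygous pair was 6.79-fold above wild type (log2 2.76, SE 0.186) and 4.38-fold above heterozygous (log2 2.13, SE 0.181). In CB RNA the libraries had 60.3, 60.8 and 67.5 CPM in heterozygotes and 56.1, 61.6 and 53.8 in homozygotes. The CB groups overlapped at a log2 change of -0.14 (95% interval -0.34 to 0.07, edgeR adjusted p = 0.618), on 841 to 977 counts a library. Stambp was the only one of the 9 genes with a negative CB estimate, and its pseudogene Stambp-ps1 could share reads with it.

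Wdr34 encodes an intermediate chain of cytoplasmic dynein 2, the motor that carries cargo back from the tip of cilia and flagella. It was the most abundant of the 9 genes in spermatids, at 23.7 and 25.2 CPM in wild type, 38.3 and 38.6 in heterozygous and 119 and 114 in homozygous libraries. The 3 genotypes did not overlap, and the homozygous pair was 4.76-fold above wild type (log2 2.25, SE 0.127). CB levels were 21.7, 29.8 and 23.6 CPM in heterozygous and 32.0, 37.2 and 38.0 in homozygous libraries. The CB groups did not overlap, but the log2 change of 0.51 (SE 0.141) did not pass the test (edgeR adjusted p = 0.114).

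In the CB libraries 5 of the 9 genes were called higher and none lower in homozygotes, by edgeR at an adjusted p under 0.05 over all 19335 genes. CB levels are not part of the difference that names the list, but the list was drawn up with results of these data, CB results included, already known, so the count is no independent test. The background for the higher calls was 1.16% (224 genes), and 108 genes were called lower (0.559%). The unadjusted p was under 0.05 for 7 of the 9 genes, against 14.5% of all genes in either direction, and DESeq2 called 5. The estimate was above 0 for 8 of the 9 genes, against 49.3% of all genes, with a median log2 change of 0.58 against -0.005. Groups did not overlap, homozygous above heterozygous, for 7 of 9 genes and for 11.5% of all genes. The CB count varied with the libraries: it was 5 without heterozygous library 1, but 3 and 2 without heterozygous libraries 2 and 3, and 1 without any one homozygous library, Lrrc61 remaining each time.

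Other genes did so too. Of the 426 genes called higher in homozygous against wild-type spermatids (2.39% of 17809), 404 were tested in CB RNA, and 95 were also called higher there. Those 95 are 22.3% of the spermatid list and 42.4% of the CB list of 224, and the median CB log2 change of the spermatid list was 0.48. Against heterozygous spermatids, 242 genes were called higher (1.36%), of which 69 were also higher in CB RNA, 28.5% of that list and 30.8% of the CB list. The CB estimates of the 9 genes were smaller than their spermatid ones for every gene (log2 -0.14 to 1.35 against 1.60 to 3.82 versus heterozygous). The genes were listed for a large change in homozygous spermatids, so smaller estimates in other libraries could follow from that choice alone. Kit, input and cells also differed between the kinds of library, and the difference in estimates was not tested.

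**Figure D2:**
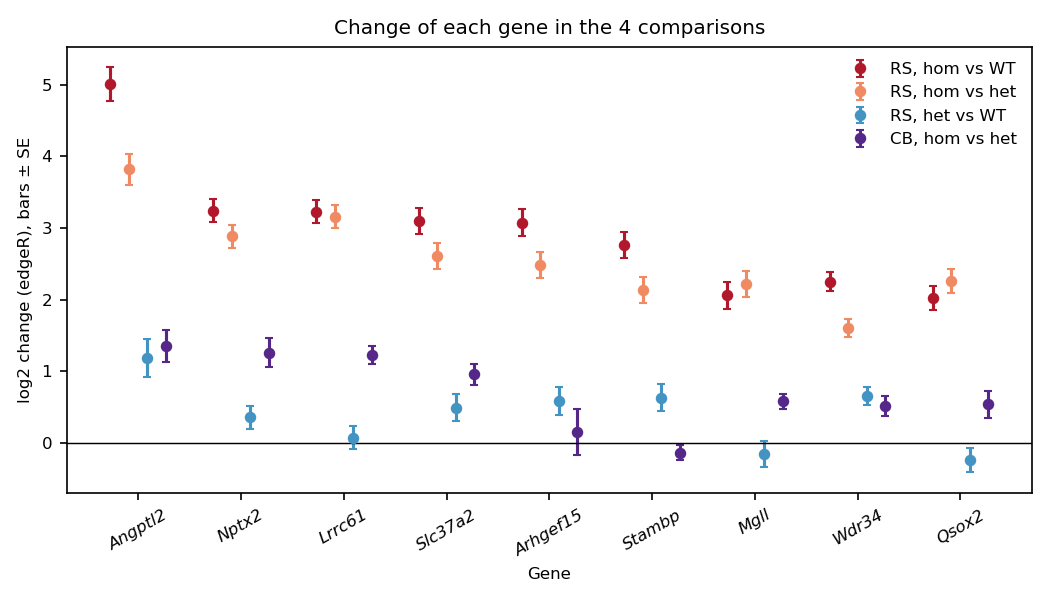
Log2 change of each gene (edgeR estimate, bars ± SE) for homozygous (hom) against wild-type (WT) and heterozygous (het) round spermatids (RS), het against WT RS, and hom against het CB RNA. RS hom changes run from 1.60 to 5.01, and CB changes from -0.14 (Stambp) to 1.35 (Angptl2).

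Between heterozygous and wild-type spermatids, none of the 9 genes passed the test, as none of 17809 genes did with edgeR (0.0%; 1296 genes, 7.28%, at an unadjusted p under 0.05, and 5 genes called by DESeq2). This comparison shares its wild-type and heterozygous libraries with those that chose the genes. Its log2 changes were 1.19 for Angptl2, 0.65 for Wdr34, 0.63 for Stambp, 0.59 for Arhgef15, 0.49 for Slc37a2 and 0.36 for Nptx2, and for these 6 genes both heterozygous libraries lay above both wild-type ones. Such separation was seen in 22.5% of all genes. Lrrc61 (0.07) and Mgll (-0.16) overlapped, and Qsox2 (-0.24) was lower in both heterozygous libraries, as were 22.1% of all genes. The edgeR adjusted p-values were 0.519 to 0.846, and 5 of the 9 genes had an unadjusted p under 0.05. Leaving out wild-type library 1, which stood apart, brought Wdr34 past the threshold (log2 0.61, edgeR adjusted p = 0.00278) and none of the other eight. Leaving out wild-type library 2 in its place brought Angptl2 (log2 1.13, edgeR adjusted p = 0.0291), Stambp (log2 0.53, edgeR adjusted p = 0.0322) and Wdr34 (log2 0.71, edgeR adjusted p = 1.38e-05) past it, when 7901 genes were called in all.

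Per length, the order of the 9 genes was read from TPM. In wild-type spermatids Wdr34 was highest at 16.7 and 21.9 TPM and Angptl2 lowest at 0.25 and 0.26 TPM. Mgll, Lrrc61 and Nptx2 followed Wdr34, each overlapping its neighbour in that order. In homozygous spermatids Wdr34 was still highest (96.5 and 96.2 TPM), followed by Nptx2 (39.2 and 34.6) and Lrrc61 (33.2 and 36.7), which overlapped. Mgll (25.6 and 22.9) and Stambp (23.5 and 21.9) overlapped as well, and Arhgef15 was lowest at 7.0 and 6.89 TPM. In homozygous CB RNA the order was led by Mgll (149 to 162 TPM) and Lrrc61 (132 to 142), with Stambp (59.9 to 67.4) and Wdr34 (52.7 to 59.8) next, and Arhgef15 was again lowest (2.14 to 2.98).

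The isoform tables listed 43 transcripts of the 9 genes. Of these, 24 passed the filter in CB RNA and none was called by edgeR there (3 of 41748 transcripts, 0.00719%, were called in all). The unadjusted p was under 0.05 for 8 of the 24, against 8.02% of all transcripts tested, and these 8 fell in 8 genes. Among them, ENSMUST00000205648 of Stambp had a negative estimate (log2 -0.61, edgeR adjusted p = 0.439) and the others had positive ones. For Nptx2 a single transcript is annotated. For Lrrc61, ENSMUST00000114545 held 87.1% to 96.3% of the gene in CB libraries and rose from 38.2, 53.6 and 58.8 TPM to 128, 125 and 134 TPM without passing the test (log2 1.23, edgeR adjusted p = 0.0847).

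Angptl2 and Slc37a2 were among the genes with transcripts whose estimated share of the gene differed between the CB genotypes. The shares are model estimates and were not tested. For Angptl2, ENSMUST00000004208 (3339 bases) held 41.5%, 43.7% and 24.0% of the gene in heterozygous CB libraries and 69.2%, 60.1% and 64.7% in homozygous ones. The same transcript held 88.8% and 91.4% in homozygous spermatids. For Slc37a2, ENSMUST00000161114 (2945 bases) held 9.0%, 0% and 15.7% in heterozygous and 52.4%, 56.6% and 51.7% in homozygous CB libraries, at 0.33, 0.00 and 0.65 TPM against 5.42, 5.08 and 5.79 TPM. In heterozygous CB libraries the Slc37a2 transcript rested on 6.72, 0 and 12.07 expected counts. Neither transcript passed the test of its level (edgeR adjusted p = 0.212 for Angptl2 and 0.244 for Slc37a2). The groups did not overlap, but the share of all transcripts that separate so was not counted. The longer ENSMUST00000115068 of Slc37a2 had 2.75, 2.94 and 2.06 TPM in heterozygous and 3.82, 3.66 and 4.01 TPM in homozygous CB libraries. For Arhgef15, ENSMUST00000065040 held 53%, 25% and 31% in heterozygous and 61%, 64% and 72% in homozygous CB libraries. For Wdr34, ENSMUST00000113711 held 70%, 70% and 75% in heterozygous and 81%, 96% and 86% in homozygous ones. The levels of these transcripts did not pass the test either (edgeR adjusted p = 0.814 for Arhgef15 and 0.448 for Wdr34).

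The spermatid transcripts of Stambp could not be assigned evenly. ENSMUST00000068054 held 84.5% and 57.7% of the gene in the homozygous libraries and 8.21% and 69.9% in the wild-type ones. ENSMUST00000206400 held 0% and 39.2% in homozygous and 91.8% and 9.54% in wild-type libraries. These shares are model estimates from the same reads, and they differed widely between libraries of a genotype. In CB RNA an 8383-base transcript, ENSMUST00000205648, was present at 3.91 to 4.87 TPM in heterozygous and 2.74 to 3.44 TPM in homozygous libraries, against at most 0.03 TPM in spermatids. Mgll was carried mainly by ENSMUST00000163271, which had 16.9 and 18 TPM in homozygous and 2.89 and 4.27 TPM in wild-type spermatids. Qsox2 was split between ENSMUST00000036187 (48.5% and 67.3% in homozygous spermatids) and ENSMUST00000091263 (51.5% and 32.7%).

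**Figure D3:**
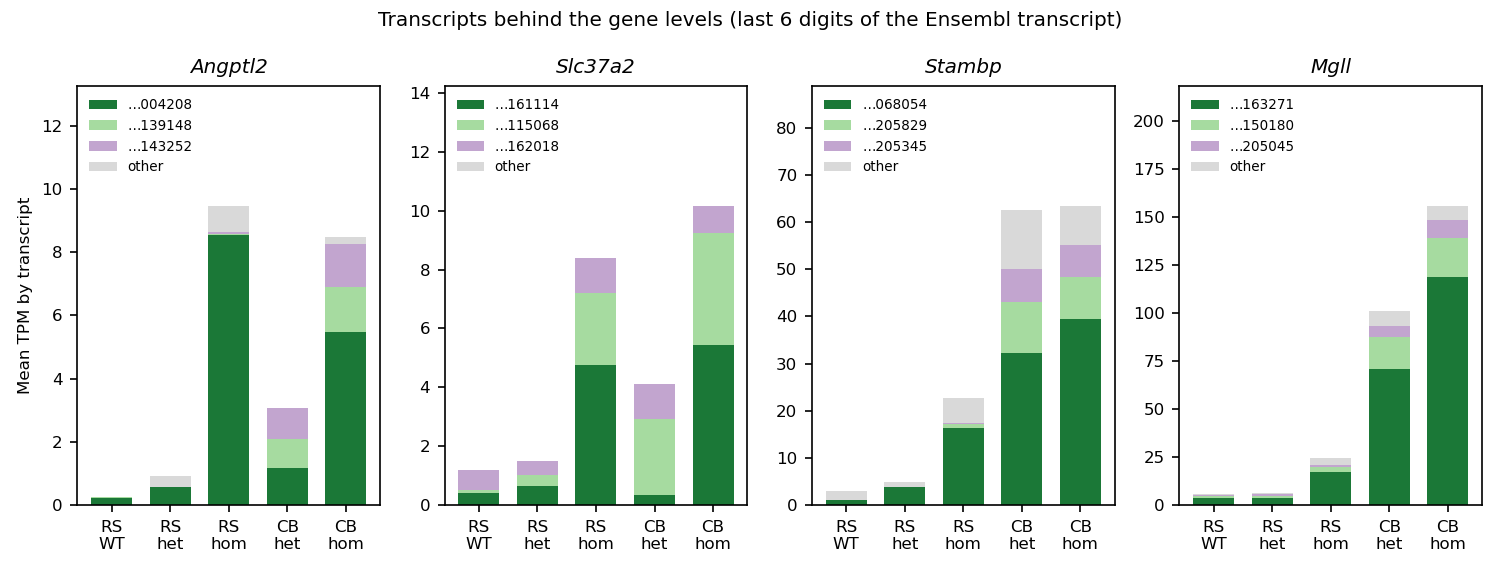
Mean TPM of the transcripts of 4 of the genes, stacked, in round spermatid (RS, n = 2) and CB (n = 3) libraries by genotype; the 3 transcripts with the highest mean are named by the last digits of their Ensembl identifier, and error is not drawn because values by library are in the text. The dark green part of Slc37a2 is 0.33 TPM in CB het and 5.43 TPM in CB hom.

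Families and partners of the 9 genes were followed in a list of 75 genes, of which 57 passed the filter in spermatids and 59 in CB RNA. In homozygous against wild-type spermatids 3 were called higher and none lower (all genes, 2.39% and 0.472%). They were Gria1, a subunit of the AMPA receptors that NPTX2 gathers (1.73 to 5.37 CPM, log2 1.64, edgeR adjusted p = 0.0456), Cnr1, a cannabinoid receptor (3.41 to 8.98 CPM, log2 1.39, edgeR adjusted p = 0.0389), and Pdia4, a disulfide isomerase (24.8 to 49.5 CPM, log2 1.00, edgeR adjusted p = 0.0222). Cnr1 was also higher against heterozygous spermatids (log2 1.64, edgeR adjusted p = 0.0360), the only one of the list. None of the 59 was called in CB RNA, where the list's median log2 change was 0.05 (all genes -0.005), and none in heterozygous against wild-type spermatids. The 13 dynein 2 and intraflagellar transport genes had a median log2 change of 0.10 in homozygous against wild-type spermatids, and the 11 endosomal sorting genes 0.11, with none called in either list.

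Other cell types were followed by 8 marker lists. Fewer cells of a type and less RNA per cell cannot be told apart in these bulk libraries. Summed Leydig cell markers were 14.4 to 16.1 TPM in wild-type, 26.3 to 29.3 in heterozygous and 52.8 to 54.5 in homozygous spermatid libraries, nearly all of it Insl3 (50.9 and 51.5 TPM in homozygous libraries), with Star at most 0.70 and Cyp17a1 at most 0.60 TPM. In CB RNA the sum was 213 to 422 TPM in heterozygous and 552 to 604 in homozygous libraries. Macrophage markers (10 genes) summed to 17.2 to 17.5, 28.2 to 32.0 and 41.0 to 41.7 TPM across the spermatid genotypes, and to 8.65 to 18.2 and 21.1 to 27.1 TPM in the CB genotypes. Cd74 was called higher in both homozygous groups (log2 1.72 against wild-type spermatids and 1.59 in CB RNA, edgeR adjusted p = 0.0135 and 0.0343).

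Endothelial markers, which bear on Arhgef15, summed to 9.45 to 11.4 TPM in wild-type, 7.93 to 14.4 in heterozygous and 13.1 to 14.9 in homozygous spermatids, and to 18.5 to 24.6 in heterozygous and 26.4 to 34.0 in homozygous CB libraries. None of the 8 endothelial genes tested was called in any comparison, and the members differed. Vwf (7.30 to 16.8 CPM, log2 1.19, edgeR adjusted p = 0.0786), Flt1 (2.99 to 5.87 CPM, log2 0.98, edgeR adjusted p = 0.146) and Egfl7 (2.67 to 4.31 CPM, log2 0.68, edgeR adjusted p = 0.224) were higher in both homozygous than in both wild-type spermatid libraries. So was Kdr (log2 0.25), and such separation was seen in 26.7% of all genes. Cdh5 had a log2 change of -0.11 there (edgeR adjusted p = 0.929), Tek -0.12, Eng -0.10 and Cldn5 -0.19. The median of the 8 genes was 0.07 (all genes -0.0006). Neither Cdh5 nor Pecam1 exceeded 0.33 TPM in spermatids. Sertoli markers summed to 37.1 to 41.7 TPM in wild-type and 22.1 to 24.8 TPM in homozygous spermatids, and up to 2 of the 12 Sertoli and 2 of the 12 endothelial markers were at 0 in a library. Peritubular markers summed to 273 to 347, 335 to 348 and 205 to 207 TPM in wild-type, heterozygous and homozygous spermatids. Most of that sum was Actg2 (262 to 333 TPM in wild-type and 178 to 179 in homozygous libraries), while Acta2 (log2 1.53, edgeR adjusted p = 0.0449) and Dcn (log2 0.96, edgeR adjusted p = 0.0358) rose and Cnn1 had a log2 change of 1.52 (edgeR adjusted p = 0.186). Spermatogonial markers summed to 51.6 to 58.6, 61.6 to 97.1 and 68.8 to 115 TPM. The largest part of that sum was Uchl1 (23.36 to 34.16 TPM in wild-type and 36.95 to 88.68 TPM in homozygous libraries). Uchl1 had a log2 change of 0.39 (edgeR adjusted p = 0.265), and the median of the spermatogonial genes tested was 0.15 with none called. Of all 65 marker genes tested in homozygous against wild-type spermatids, 5 were called higher (Cd74, Lyz2, Insl3, Dcn, Acta2) and 3 lower (Clu, Aard, Actg2). In CB RNA 1 of 68 was called higher (Cd74) and 3 lower (Prm1, Spaca1, Actg2). The part of these cell types in the levels of the 9 genes was not tested.

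**Figure D4:**
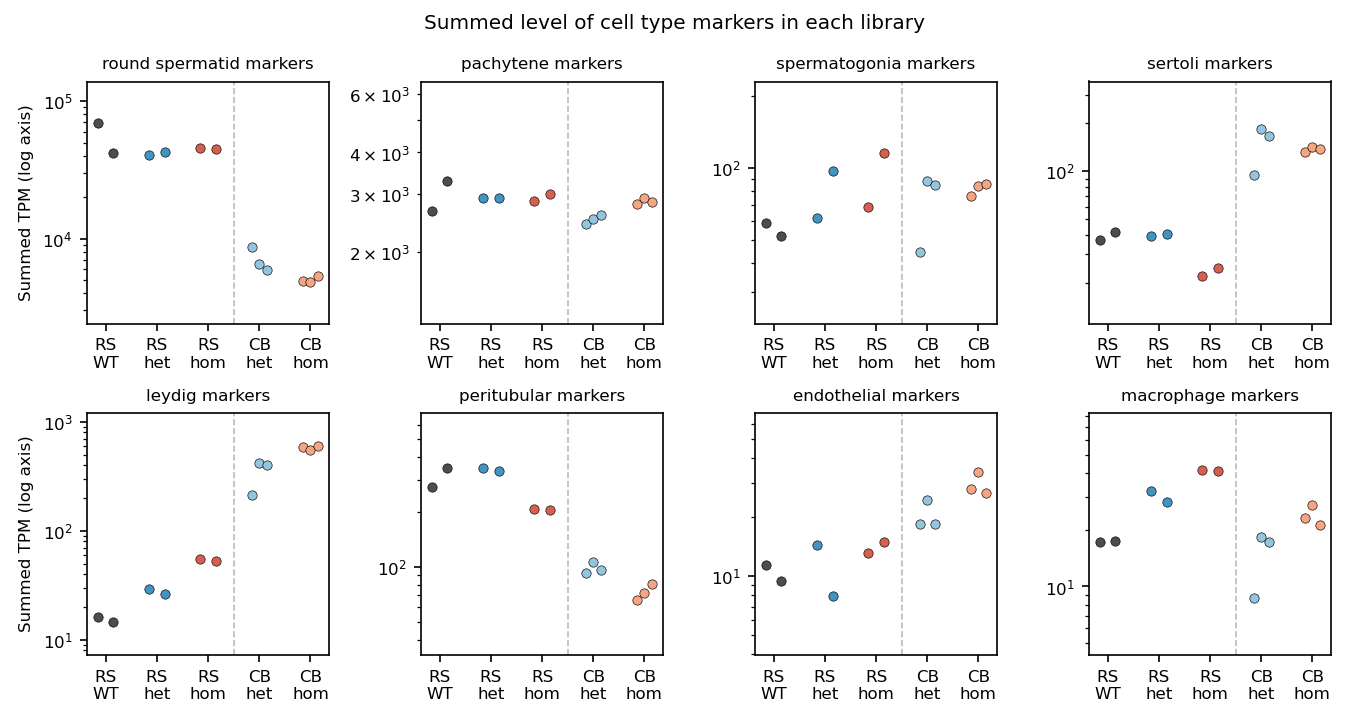
Summed TPM of the markers of 8 cell types (log axis, 1 panel a list) in each round spermatid (RS) and CB library by genotype; each point is a library. Among the RS libraries, Leydig and macrophage sums are highest in hom (52.8 to 54.5 and 41.0 to 41.7 TPM) and Sertoli sums lowest there (22.1 to 24.8 TPM); Leydig sums of the CB libraries are higher still (213 to 604 TPM).

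On the genome, 3 of the 9 genes lie on chromosome 2 within 7.0 Mb (Qsox2, Wdr34 and Angptl2) and 3 on chromosome 6 within 40.3 Mb (Lrrc61, Stambp and Mgll); these chromosomes hold 7.45% and 4.83% of tested genes. The others are on chromosomes 5 (Nptx2), 9 (Slc37a2) and 11 (Arhgef15), and none is on chromosome 13 with Ddx4. The nearest tested genes on both sides of each gene make 18 neighbours, and 1 of the 18 was called in homozygous against wild-type spermatids (all genes, 2.86%). This was Actg2, a smooth muscle actin gene 6955 bases from Stambp, which fell from 252 to 129 CPM (log2 -0.96, edgeR adjusted p = 0.0145), while Stambp was higher in the same libraries. Actg2 also fell in CB RNA, from 32.9 to 17.5 CPM (log2 -0.91, edgeR adjusted p = 0.00562). Sptan1, which ends 100 bases from Wdr34, had a log2 change of 0.61 (edgeR adjusted p = 0.389). Ralgps1 spans all of Angptl2 and had a log2 change of 0.21 (edgeR adjusted p = 0.559). The spermatid kit is not stated to keep strand, so reads of such overlapping genes could not be told apart by strand there.

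Mgll and Stambp adjoin loci that give rise to piRNAs. A cluster of the hybrid class that the authors named after Mgll (chromosome 6, 88724470 to 88825847) lies within Mgll (88724412 to 88828360). A pachytene cluster (83575941 to 83588124) lies 0.1 kb upstream of Stambp (83543206 to 83575826), which is on the minus strand. Among 16151 genes placed on the genome, 1.15% overlapped a cluster and 1.42% lay within 1 kb of one, against 1 and 2 of the 9 genes. The long noncoding RNA gene Gm21284 (83568039 to 83588126) overlaps both Stambp and its cluster, and had log2 changes of 0.73 in homozygous against wild-type spermatids (edgeR adjusted p = 0.120) and 0.14 in CB RNA.

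Small RNA on these clusters was examined after the values of the 9 genes had been seen and is given without a test, as a percent of all cluster reads (n = 2 libraries a group). In round spermatids the Mgll cluster took 0.0503% and 0.0408% in wild type, 0.0819% and 0.0685% in heterozygous and 0.254% and 0.155% in homozygous libraries. Both homozygous values were above all others. That held against wild type for 55.6% of the 214 clusters and against heterozygous for 46.3%, and heterozygous libraries were above wild type for 71.0%. The ratio of the homozygous mean (0.204%) to the wild-type mean (0.0456%) exceeded that of 98.1% of clusters. In pachytene spermatocytes the wild-type (0.114% and 0.112%) and homozygous values (0.117% and 0.106%) overlapped, and the heterozygous ones were lower (0.0520% and 0.0536%). Lower heterozygous than wild-type values were seen in 62.6% of clusters there, and higher homozygous than heterozygous values in 69.6%. The homozygous spermatid libraries were also the shallowest, with 11.7 and 9.23 M cluster reads. In RNA libraries, reads of Mgll mRNA and of a piRNA precursor from the same locus cannot be told apart.

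Against wild type, the cluster beside Stambp went the other way in spermatids. It took 0.186% and 0.192% of cluster reads in wild type, 0.0787% and 0.0749% in heterozygous and 0.0951% and 0.118% in homozygous libraries. Both knock-in genotypes were below wild type, as were 32.2% of clusters in homozygotes and 23.4% in heterozygotes, and the heterozygous pair was lowest, while Stambp RNA was highest in homozygotes. Both homozygous values were above both heterozygous ones, as for 46.3% of clusters and as for the Mgll cluster. In pachytene spermatocytes its share was 0.123% and 0.129% in wild type, 0.150% and 0.153% in heterozygous and 0.0881% and 0.0832% in homozygous libraries. There the homozygous pair was lowest, below wild type as for 25.2% of clusters and below heterozygous as for 26.2%, and the heterozygous pair was above wild type as for 31.8%.

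**Figure D5:**
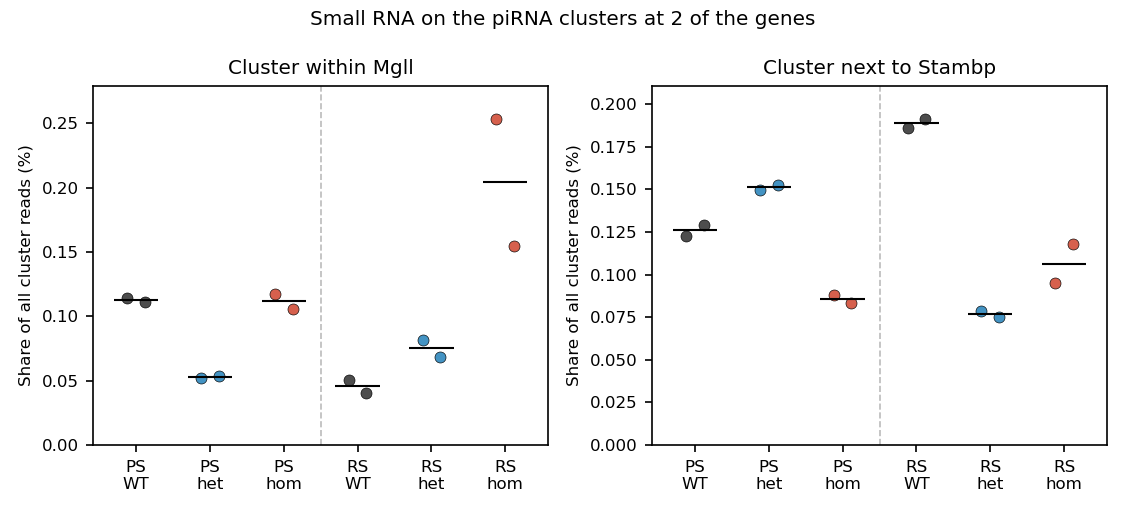
Share of all piRNA cluster reads (%) on the cluster within Mgll (left) and the cluster next to Stambp (right) in each small RNA library of pachytene spermatocytes (PS) and round spermatids (RS) by genotype; points are libraries and bars means of 2. The RS hom points are the highest for Mgll (0.254% and 0.155%), and the RS WT points the highest for Stambp (0.186% and 0.192%).

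Across the 12 spermatid and CB libraries, each kind centred on its own mean, the levels of the 9 genes moved much alike, with Pearson r of 0.83 to 0.99 between pairs (36 pairs, log2(CPM + 1)). In the 6 CB libraries alone r ranged from -0.82 to 0.99. The points share their genotype groups, and the genes were listed for the same spermatid difference, so these values only describe them. Among 16016 genes tested in both kinds, the 5 others whose levels were most like the mean of the 9 were Slc26a11 (r = 0.993), BC049730 (0.990), Txndc15 (0.987), Chp1 (0.987) and Gm5878 (0.987), over 12 libraries. Of these, BC049730 (15.1 to 36.2 CPM, log2 1.26, edgeR adjusted p = 0.00227) and Chp1 (22.2 to 32.9 CPM, log2 0.56, edgeR adjusted p = 0.0298) also passed the test in CB RNA, whose libraries entered that ordering. Gm5878, like Mgll, holds a piRNA cluster, and its share of spermatid cluster reads was 0.534% on average in wild type and 0.451% in homozygotes.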

How the data were processed

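RNA of mouse round spermatids (6 libraries), CB RNA (6) and small RNA (12) was analysed. The 9 genes and all gene lists were chosen with earlier results of these data known. Per the file headers, the tables deposited by the authors give TPM, FPKM and expected counts for every Ensembl gene and isoform, with the isoform's percent of its gene; FPKM values deposited by the authors were not used in tests. Whole-number counts per piRNA cluster were deposited for the small RNA libraries. Per the labels' protocols, spermatid RNA libraries used 1 ug of RNA and a NEBNext kit, and CB libraries 25 ng and a strand-specific kit with neither polyA selection nor ribosomal depletion. Per the submitters' processing notes, Trim Galore and the build mm10 were used; aligner and quantifier: not given in the sources used here.

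Expected counts were rounded and tested with edgeR 4.0.16 in R 4.3.3 (quasi-likelihood F test, TMM, filterByExpr by group, Benjamini-Hochberg over all features tested, threshold 0.05). The 6 spermatid libraries were fitted together and the 6 CB libraries together, with genotype only. The script recovered known changes in simulated data with a fixed spread and no outlying library. Simulated were the CB comparison and homozygous against wild-type spermatids. Recovery at the uneven spread of the real libraries was not measured. DESeq2 1.42.0, RLE factors, no filter, removal of a length trend, a replicate block and leaving out each library were tried as alternatives. Named were the 9 genes, every called gene of the lists, neighbours and the 5 genes most alike. Same-numbered libraries did not deviate together. No pair of libraries agreed within counting noise. Cluster counts were expressed as a percent of cluster reads. Positions and promoters are RefSeq's on GRCm38.p6, whose primary chromosomes are those of mm10.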

Additional observations from a re-analysis of the deposited data

How the results depend on the processing

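Removing samples or changing the tool moved the counts of calls far more than the estimates of the 9 genes. CB genes called numbered 332, with 598 by DESeq2, 882 with no filter on low counts, 163 with a replicate block and 51 to 2213 with single libraries left out. Of the 9 genes, 1 to 5 were called in CB RNA with single libraries left out, 7 with no filter (Wdr34 and Qsox2 added) and 4 with the replicate block, under which Mgll no longer passed (log2 0.58, edgeR adjusted p = 0.0801). CB transcripts called were 3, with 42 under no filter, 0 with the replicate block and 0 to 96 with single libraries left out. For homozygous against wild-type spermatids 510 genes were called, with 1287 by DESeq2, 1692 with no filter, 182 with the replicate block, 2501 with a length trend removed, 15 when only the compared libraries were fitted and 0 to 8488 with single libraries left out. Against heterozygous spermatids 308 were called, with 796, 912, 12, 1760, 5577 and 0 to 5608 under those settings in that order. Heterozygous against wild-type calls were 0, with 5 by DESeq2, 6 with no filter and 0 to 7901 with single libraries left out; leaving out wild-type library 1 gave 161 and leaving out the other wild-type library 7901. The replicate block gave 0 there, as did a block with crossed numbers, chosen after seeing the data. Same-numbered libraries correlated at -0.13 to 0.11 in spermatids and -0.18 to -0.01 in CB RNA, so the block pairs libraries by number only.

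Signs turned only for small estimates. Arhgef15 in CB RNA went to -0.16 without heterozygous library 3 and -0.029 without homozygous library 2 (range with single libraries left out, -0.16 to 0.43). In heterozygous against wild-type spermatids Lrrc61 went to -0.044 with the length trend removed and ranged from -0.059 to 0.19 with single libraries left out, and Mgll from -0.34 to 0.00365, above 0 also without wild-type library 2 (0.00363). A fit that leaves a spermatid group with 1 library assumes that it varies like the others. The log2 changes of the 9 genes in homozygous spermatids kept their sign under all 12 alternatives, at 1.55 to 5.05. Depth limits Angptl2, at 13 and 16 counts in wild-type spermatids, and Arhgef15, at 24 to 68 counts in CB RNA.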
